A study of Mus musculus with 6 samples.

Results

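The collagen and laminin genes of the basement membrane were examined in the renal cortex of mice with and without *Prdm16*. The 10 genes were taken by symbol from the 26903 genes of the 6 libraries together, and every library listed all 10. *Col4a1*, *Col4a2*, *Col4a3*, *Col4a4* and *Col4a5* encode chains of collagen IV, and *Col18a1* encodes collagen XVIII, a basement membrane collagen that carries heparan sulfate chains and from whose end endostatin is cut. *Lama5*, *Lamb2* and *Lamc1* encode the alpha, beta and gamma chains of the laminin of the mature glomerulus, and *Nid1* encodes nidogen, which links the laminin and collagen IV networks.

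A basement membrane is a thin sheet of matrix beneath epithelial and endothelial cells. Its collagen IV chains wind into heterotrimers, of which that of the Col4a1 and Col4a2 chains is found in nearly all basement membranes. The heterotrimer of the Col4a3, Col4a4 and Col4a5 chains forms the network of the mature glomerular basement membrane and is also found beneath some tubules, and its loss causes Alport syndrome. In the glomerulus podocytes and endothelial cells face each other across this membrane, and mesangial cells hold the capillary loops together.

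The libraries were single-cell RNA sequencing libraries of renal cortex from 9-month-old mice, 3 wild type (WT) and 3 with a *Prdm16* global knockout (KO), 1 library per mouse. The KO mice lacked exon 2 of *Prdm16* in all cells, after CRISPR-Cas9 editing that shifted the reading frame. Transcripts were captured by their 3′ ends and counted as unique molecular identifiers (UMIs), so levels are compared between classes and genotypes for 1 gene, and not between genes. The question was at which level each kidney cell class held these transcripts and whether WT and KO libraries differed within a class.

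*Prdm16* itself (chr4:154316125-154636873, minus strand, GRCm38) was at 32.4, 26.3 and 26.7 CPM (UMIs of a gene per 1e+06 UMIs) in WT replicates 1 to 3 and at 21.0, 24.8 and 23.0 CPM in KO replicates 1 to 3 over all retained cells. All KO values lay below all WT values, as they did for 10.4% of the 15218 genes tested over all cells. The difference did not pass the edgeR quasi-likelihood test (log2 fold change −0.29, adjusted p 0.335 after Benjamini-Hochberg). UMIs of 3′ ends lie outside the deleted exon, so this level does not check the genotype. The mice were labelled male, but *Xist*, which female cells transcribe from their silent X, reached 298 CPM in the second WT library and 306 CPM in the first KO library but no more than 0.216 CPM elsewhere, and the summed Y-linked genes were at 0.0548 and 0.0588 CPM in these and at 110.09 CPM or more in the others. These libraries went against their label, 1 in each group, and the called results are also given from the other 4 libraries. The 6 libraries held 96382945 to 121198131 UMIs over all barcodes, and 3744 to 6642 cells per library were retained, 29581 in all, with median depths of 2328 to 3390 UMIs and median mitochondrial shares of 19.7% to 29.6%. Library pairs shared at most 2 cell barcodes.

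Cells were grouped into 27 clusters, without the 10 genes among the clustering genes, and clusters were named from marker genes. A class name therefore stands for marker genes and not for a proven cell type. The classes were podocyte-like cells (5979 cells), endothelial-like cells (5166, with glomerular, peritubular and arterial subclasses), stromal-like cells (946, with mesangial-like cells and smooth muscle and renin-like cells as subclasses), proximal convoluted tubule-like cells (PCT, 625), thin limb and parietal epithelial-like cells (TL and PEC, 344), loop of Henle-like cells (LOH, 3660), macula densa-like cells (MD, 349), distal convoluted tubule-like cells (DCT, 1781), connecting tubule and principal-like cells (CNT and PC, 4262), intercalated-like cells (IC, 1608), macrophage-like cells (1012) and T and NK-like cells (807). PCT cells were few, with 12 to 296 per library, although they are the most abundant cells of the cortex. The 2 clusters that stayed unnamed held 2371 cells.

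Upstream sequence is shown for the genes on which the comparisons below turn, so that the paired and the unpaired arrangement of these genes can be seen. *Col4a3* (chr1:82586921-82722059, plus strand) and *Col4a4* (chr1:82448423-82586849, minus strand) start 72 bases apart and run away from each other. *Col4a1* (chr8:11198423-11312826, minus strand) and *Col4a2* (chr8:11312805-11449287, plus strand) overlap by their start exons and are transcribed apart, so no base between them lies outside an exon. *Col18a1* (chr10:77052178-77166548, minus strand) and *Lama5* (chr2:180176373-180225859, minus strand) have no such partner. The sequences are from RefSeq on GRCm38.p6, each read 5′ to 3′ on the minus strand and kept outside annotated exons, and capitals mark 2 motifs on either strand. One is the GC box, spelled GGGCGG. The other is the CCAAT box, named by its letters.
*Col18a1*, chr10:77166549-77166780: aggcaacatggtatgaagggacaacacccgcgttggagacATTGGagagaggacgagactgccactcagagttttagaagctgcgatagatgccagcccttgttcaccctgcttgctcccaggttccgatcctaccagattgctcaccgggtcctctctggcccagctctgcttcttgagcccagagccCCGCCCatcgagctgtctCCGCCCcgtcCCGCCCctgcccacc
*Lama5*, chr2:180225860-180226109: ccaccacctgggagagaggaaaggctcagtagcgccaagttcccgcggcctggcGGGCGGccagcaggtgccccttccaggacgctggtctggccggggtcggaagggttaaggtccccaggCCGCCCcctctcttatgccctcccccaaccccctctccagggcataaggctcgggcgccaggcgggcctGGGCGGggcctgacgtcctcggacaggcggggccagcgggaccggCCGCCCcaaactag
Between *Col4a4* and *Col4a3*, chr1:82586850-82586920: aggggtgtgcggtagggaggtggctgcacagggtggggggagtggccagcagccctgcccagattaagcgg
The *Col18a1* stretch held 3 GC boxes and 1 CCAAT box, the *Lama5* stretch 4 GC boxes, and the 71 bases shared by *Col4a3* and *Col4a4* neither. TATAAA was present in none of them on either strand. Of 32851 promoters of 300 bases, 35.7% held a GC box, 37.4% a CCAAT box and 13.6% TATAAA, so these letters are common, and a match is not a site.

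Levels across classes are descriptions, since classes come from clusters of the same cells. *Col4a1* and *Col4a2*, the chains of the widespread network, were highest in mesangial-like cells, at 1291 ± 269 and 615 ± 124 CPM (SD over 6 libraries). *Col4a1* ran from 882 to 1583 CPM there and from 530 to 828 CPM in the next class, peritubular endothelial-like cells, with no overlap. *Col4a1* was at 564 ± 120 CPM in glomerular endothelial-like cells, a level whose range overlapped that of the peritubular cells. Podocyte-like cells had the lowest mean of 15 classes for both genes, at 1.94 ± 0.702 CPM for *Col4a1* and 1.19 ± 0.758 CPM for *Col4a2*. T and NK-like cells, the class next above, held only 4 UMIs of each gene, and the ranges overlapped. Over class means the pair had a Pearson correlation of 0.99 (log2(CPM + 1), 15 classes that share libraries), and for each of them the other was the most alike of 10424 genes compared.

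*Col4a3*, *Col4a4* and *Col4a5* were instead highest in podocyte-like cells. *Col4a3* was at 1324 ± 129 CPM in podocyte-like cells, *Col4a4* at 1452 ± 141 CPM and *Col4a5* (chrX:141475385-141689234, plus strand) at 208 ± 14.99 CPM, and for each gene all 6 libraries lay above every library of the next class. The next class was TL and PEC for *Col4a3* (197 ± 60.8 CPM) and *Col4a5* (87.2 ± 16.7 CPM), and CNT and PC for *Col4a4* (356 ± 46.7 CPM). Podocyte-like cells held 85.2% of all retained *Col4a3* UMIs and 55.8% of all *Col4a4* UMIs. *Col4a5* was also at 64.8 ± 6.33 CPM in smooth muscle and renin-like cells, where *Col4a3* was at 20.9 ± 8.90 CPM, and at 1.74 ± 1.48 CPM in glomerular endothelial-like cells.

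**Figure D1:**
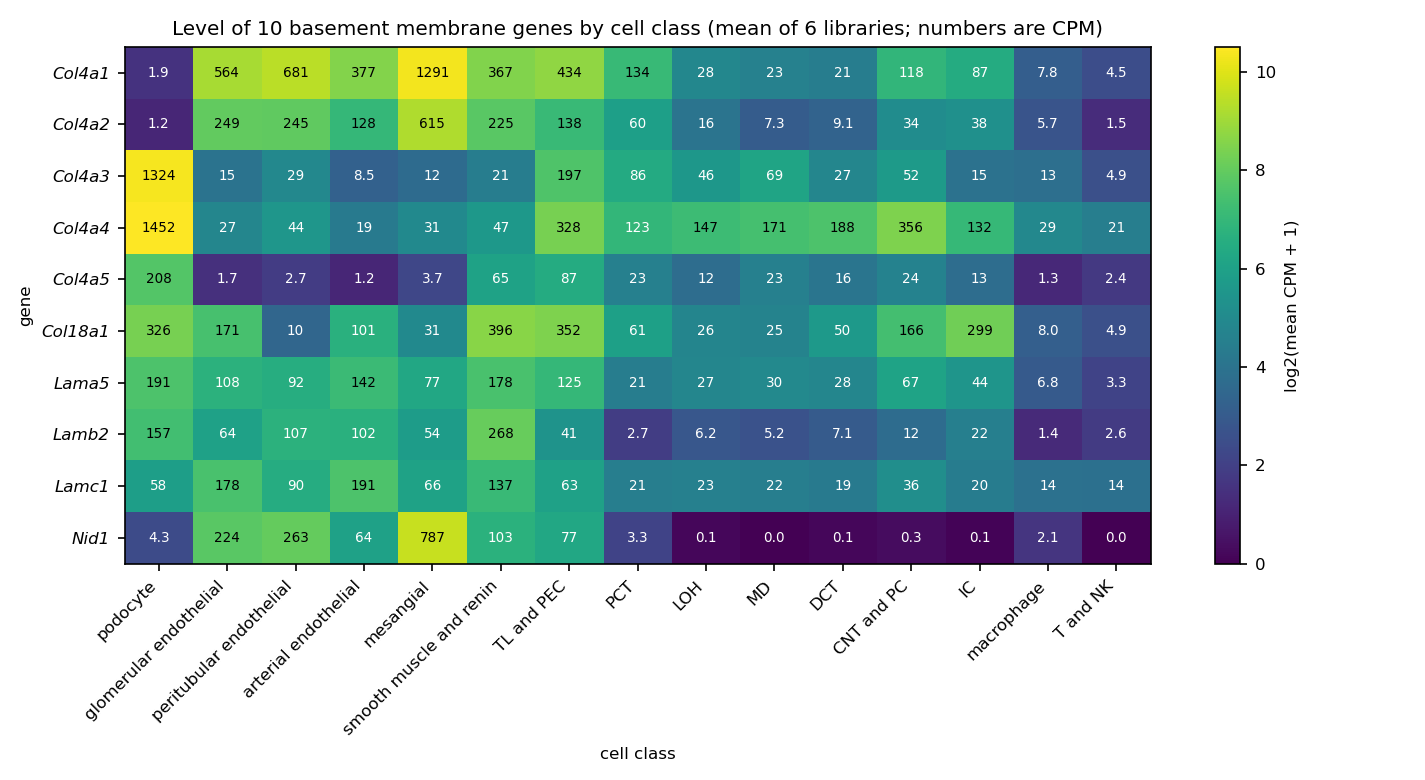
Mean level of each of the 10 genes (rows) in each of 15 cell classes (columns) over 6 libraries, with the colour on a log2(mean CPM + 1) scale and the mean CPM printed in each cell. *Col4a1* and *Col4a2* peak in mesangial-like cells, at 1291 and 615 CPM, and *Col4a3*, *Col4a4* and *Col4a5* in podocyte-like cells, at 1324, 1452 and 208 CPM.

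*Col18a1* was spread over epithelium and vessel wall. It was at 396 ± 73.2 CPM in smooth muscle and renin-like cells, 352 ± 145 CPM in TL and PEC, 326 ± 69.2 CPM in podocyte-like cells and 299 ± 29.6 CPM in IC, 4 classes whose neighbours in this order overlapped. IC lay above glomerular endothelial-like cells (171 ± 31.0 CPM) in all 6 libraries with no overlap. Peritubular endothelial-like cells held 10.1 ± 7.21 CPM, so the endothelial subclasses did not share 1 level.

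Among the laminin chains, *Lama5* was highest in podocyte-like cells at 191 ± 50.03 CPM, with smooth muscle and renin-like cells (178 ± 27.5 CPM) not separable from them. *Lamb2* (chr9:108479736-108490530, plus strand) was highest in smooth muscle and renin-like cells at 268 ± 27.7 CPM, above podocyte-like cells (157 ± 25.3 CPM) in all 6 libraries with no overlap. *Lamc1* (chr1:153218922-153332786, minus strand) was highest in arterial endothelial-like cells at 191 ± 33.3 CPM, within the range of glomerular endothelial-like cells (178 ± 100.3 CPM). *Nid1* (chr13:13437551-13512269, plus strand) was at 787 ± 174 CPM in mesangial-like cells, 263 ± 53.4 CPM in peritubular and 224 ± 11.95 CPM in glomerular endothelial-like cells. In the tubules nidogen transcripts were few, with 0.282 ± 0.156 CPM in CNT and PC and 0 UMIs in MD, but TL and PEC held 76.9 ± 32.5 CPM.

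Transcripts of *Col4a4* were counted far from podocyte-like cells, and *Col4a3* did not follow them to the same extent. In CNT and PC *Col4a4* stood at 434, 321 and 355 CPM in WT mice against 367, 364 and 298 CPM in KO mice. This was 24.5% ± 2.01 of the podocyte-like level (SD over 6 libraries). *Col4a3* was there at 3.96% ± 0.628 of its podocyte-like level, and *Nphs1*, the podocyte gene of nephrin, at 0.141% of its own. *Col4a4* made up 52.3% ± 0.799 of the UMIs of *Col4a3* and *Col4a4* in podocyte-like cells and 87.2% ± 1.51 in CNT and PC, 87.4% ± 1.19 in DCT, 89.9% ± 1.26 in IC and 76.2% ± 2.00 in LOH, and none of these ranges overlapped that of podocyte-like cells. In TL and PEC, by contrast, *Nphs1* stood at 12.5% ± 7.39 of the podocyte-like level beside 22.6% ± 3.63 for *Col4a4*, so podocyte transcripts other than collagens were counted in that class. In barcodes with 10 to 99 UMIs, which hold free RNA, *Col4a4* was at 300 ± 41.0 CPM, and in T and NK-like cells, which should lack it, at 21.4 ± 13.9 CPM, or 38 UMIs in all.

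**Figure D2:**
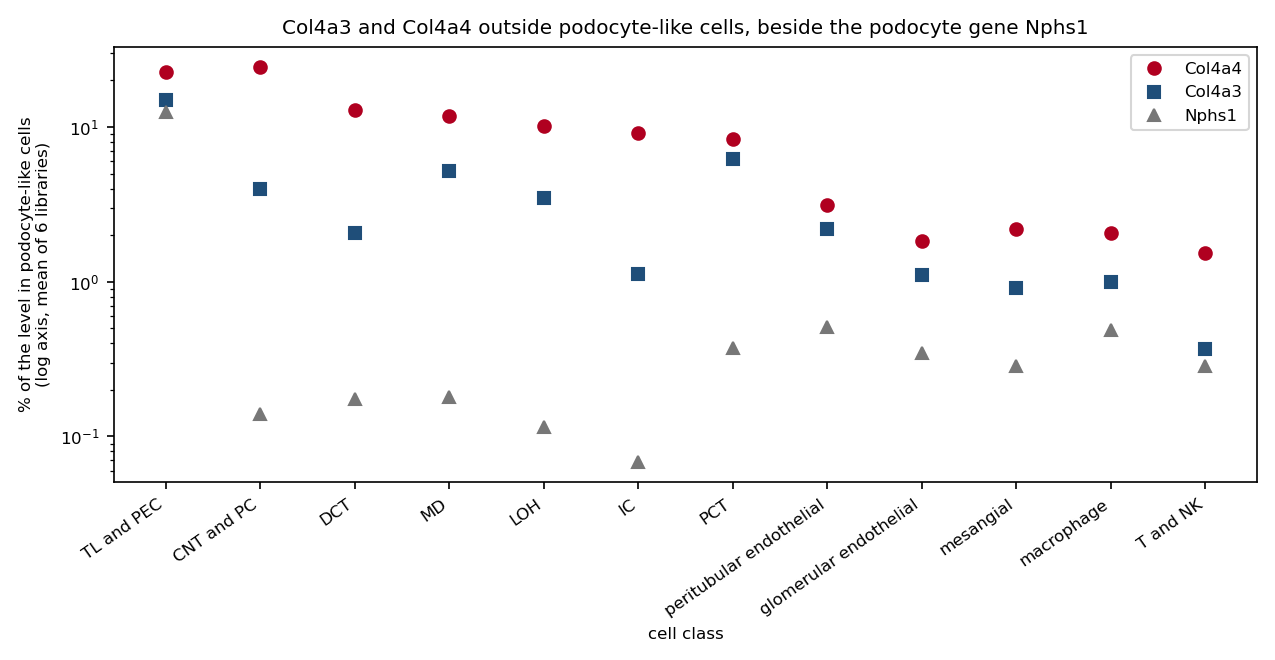
Level of *Col4a4*, *Col4a3* and *Nphs1* in 12 classes as a percentage of the level in podocyte-like cells (mean of 6 libraries, log axis). In CNT and PC *Col4a4* lies at 24.5% and *Col4a3* at 3.96%, while *Nphs1* lies at 0.141%.

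UMIs were then summed per library and class and compared between WT and KO with edgeR, adjusting over all genes of a class. Over 12 main classes the 10 genes gave 120 pairs of gene and class, of which 84 passed the count filter and 36 did not. Of the 84, 4 had an adjusted p under 0.05, all lower in KO, where 1.47% of all 92262 tests passed in either direction and 0.706% passed as lower. These were *Col18a1* and *Col4a1*, each in CNT and PC and in LOH. The estimate was lower in KO in 54 tests and higher in 30, with a median log2 fold change of −0.09, and 20 had an unadjusted p under 0.05. In the 5 subclasses edgeR called 0 of 40 tests (3 at an unadjusted p under 0.05), where 0.199% of genes passed in glomerular, 0.548% in peritubular and 0.35% in arterial endothelial-like cells, 0.455% in mesangial-like cells and 0% in smooth muscle and renin-like cells.

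**Figure D3:**
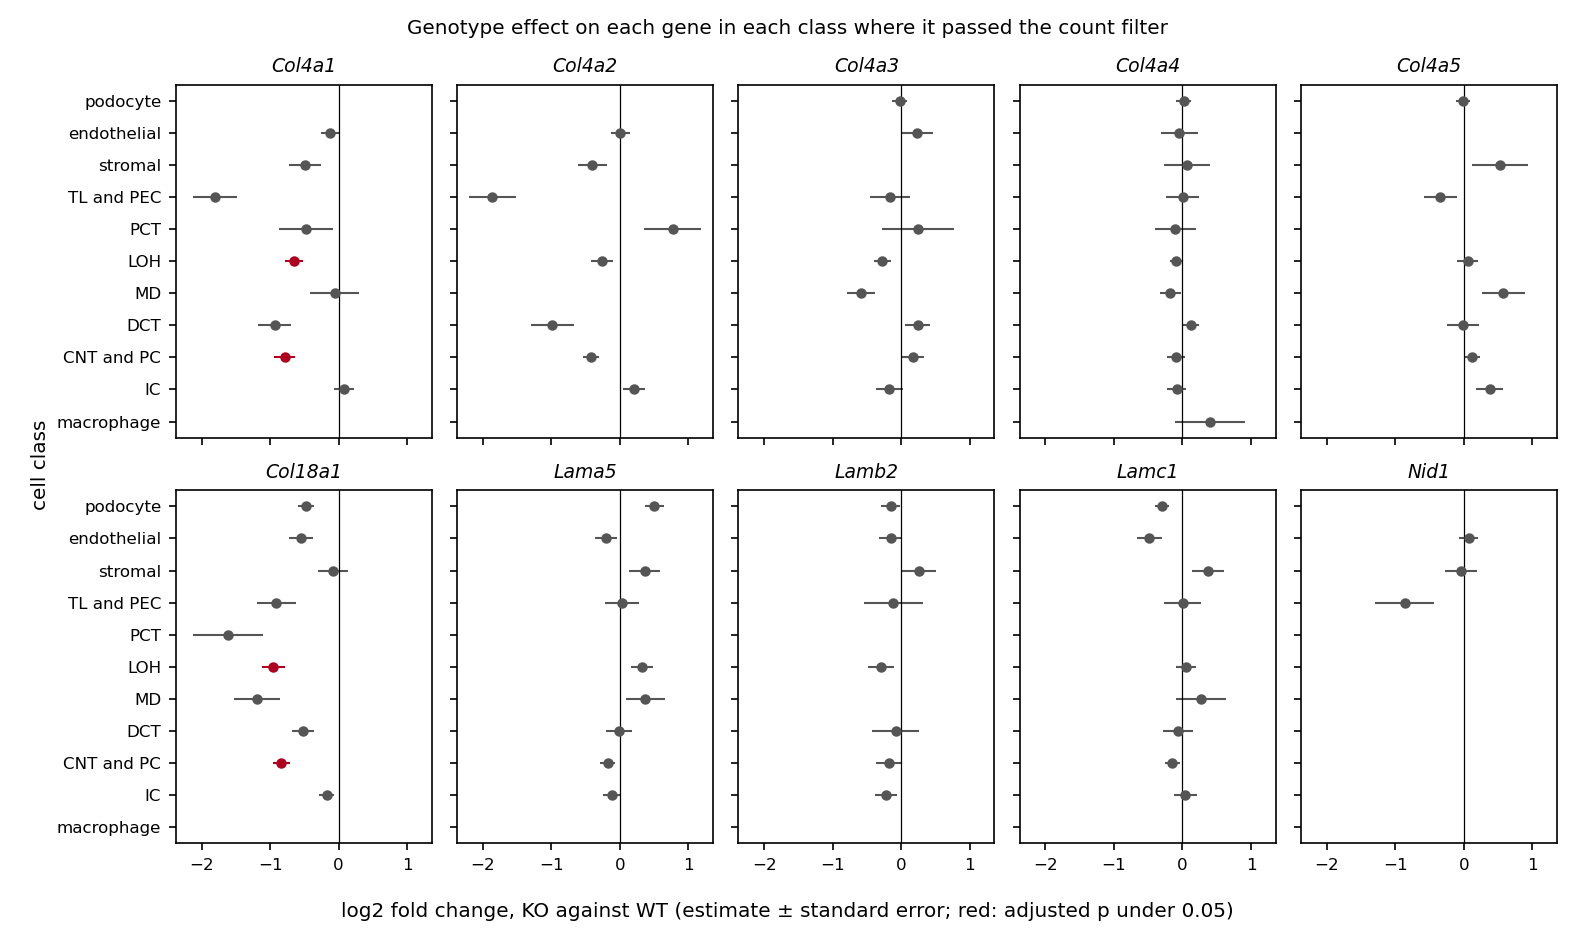
Log2 fold change of KO against WT for each gene in each class where it passed the count filter (points, with the standard error of edgeR as bars, 3 WT and 3 KO libraries). Red points are the 4 tests with an adjusted p under 0.05, which are *Col4a1* and *Col18a1* in LOH and in CNT and PC.

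*Col18a1* had the broadest difference. In CNT and PC it was at 207, 218 and 215 CPM in WT mice against 102, 123 and 129 CPM in KO mice. The KO libraries lay far below the WT libraries, with no overlap, where 9.86% of all genes of this class lay below without overlap. Its log2 fold change came to −0.84 (SE 0.12, adjusted p 0.00513 with edgeR), in a class where 3.17% of genes passed and 1.57% passed as lower. Summed markers of DCT were also lower in this class, at 601 to 674 CPM in WT and 324 to 496 CPM in KO (4 genes, 1 of them lower without overlap). Summed markers of LOH, at 907 to 1300 CPM and 770 to 906 CPM, were barely apart (6 genes, 1 of them lower and 1 higher without overlap). The part of either in the result was not tested. The call was kept in all 17 alternatives, and from the 4 libraries without *Xist* the log2 fold change was −0.73 with an adjusted p of 0.0450.

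In LOH *Col18a1* was at 35.2, 30.9 and 38.4 CPM in WT mice against 19.7, 12.9 and 20.9 CPM in KO mice. Again every KO library lay below every WT library, as it did for 10.8% of all genes in LOH. The log2 fold change came to −0.96 (SE 0.17, adjusted p 0.00645 by edgeR), with 4.38% of genes called in LOH and 2.28% called as lower. It was −1.08 with an adjusted p of 0.0208 from the 4 libraries without *Xist*, but a mitochondrial limit of 30%, which left 88 to 171 LOH cells per library, gave −0.45 and 0.829. Markers of principal cells, summed over 6 genes, were also lower in the LOH of KO, at 22.5 to 33.9 CPM against 48.7 to 78.4 CPM in WT, with 3 of the 6 not overlapping and none at 0 in all libraries. Summed DCT markers (4 genes, 1 of them not overlapping) were also lower there, at 17.7 to 26.3 CPM against 26.8 to 40.7 CPM in WT. The part of either in this result was not tested.

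Elsewhere *Col18a1* did not pass the threshold, though KO was below WT in most classes. As background, KO lay below WT without overlap for 11.1% of all genes in podocyte-like cells, 8.48% in MD, 5.99% in TL and PEC, 8.0% in DCT, 8.88% in PCT, 10.7% in IC and 7.05% in endothelial-like cells. In podocyte-like cells it was at 419, 400 and 312 CPM in WT mice against 308, 256 and 260 CPM in KO mice, without overlap by a small margin (−0.48 on the log2 scale, adjusted p 0.0756 by edgeR). In MD it was at 32.7, 30.6 and 44.5 CPM against 18.5, 8.52 and 17.2 CPM (−1.19, adjusted p 0.0966 by edgeR). In TL and PEC it was at 561, 473 and 347 CPM against 157, 276 and 298 CPM (−0.91, adjusted p 0.420 by edgeR). In DCT the estimate was −0.51 (0.176), in PCT −1.61 (0.489) and in IC, where WT held 307 to 335 CPM and KO 258 to 298 CPM, −0.17 (0.647, all by edgeR). Stromal-like cells overlapped (−0.08). The estimate was lower in all 10 classes tested and KO lay wholly below WT in 9 of them. Of 3009 genes tested in the same 10 classes, 2 (0.0665%), *Col18a1* included, lay wholly below WT in at least 9. The cutoff was the count of *Col18a1* itself and the classes share libraries, so this is a description. In MD and DCT the gene lay below its level in free RNA of the same library, which is given above. Whether the difference is larger in CNT and PC than in IC was not tested.

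Within the endothelium the arterial subclass, where 8.8% of genes lay below WT without overlap, held *Col18a1* at 147, 126 and 120 CPM in WT mice against 50.1, 86.3 and 74.6 CPM in KO mice (−0.89 on the log2 scale, adjusted p 0.135 by edgeR). Glomerular endothelial-like cells were at 190, 193 and 144 CPM against 153, 213 and 137 CPM and overlapped (−0.04). The gene also lay lower in single clusters of a class, a comparison added after seeing the data: in each of 3 CNT and PC clusters, both LOH clusters, both IC clusters and 2 of 3 podocyte-like clusters KO lay wholly below WT, which makes 9 of 10. Of 9068 genes tested in these 4 classes 1 (0.011%), *Col18a1* itself, did so in at least 9 of these clusters. The gene and the cutoff were taken from these same values, and the clusters are parts of the same libraries. The count is therefore a description and not a repeat of the result. In the CNT and PC cluster led by *Mcoln3*, *Adh1* and *Fxyd4* it was at 344, 309 and 330 CPM in WT mice against 155, 206 and 196 CPM in KO mice.

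Over all cells *Col18a1* was at 196, 197 and 167 CPM in WT mice against 147, 132 and 115 CPM in KO mice, a log2 fold change of −0.50 (edgeR adjusted p 0.0425, with 0.953% of 15218 genes called and 10.4% lying below without overlap). This was the only 1 of the 10 genes called over all cells, and 7 of 17 alternatives removed the call, among them leaving out WT replicate 1, 2 or 3 or KO replicate 1 or 2 (adjusted p 0.0962 to 0.168). From the 4 libraries without *Xist* the log2 fold change was −0.51 with an adjusted p of 0.276. The sum over all cells also moves with the class shares, since CNT and PC were 16.9% ± 1.92 of retained cells in WT and 11.8% ± 1.79 in KO, and in the sum fewer cells of a class and less RNA per cell cannot be told apart. In barcodes with 10 to 99 UMIs *Col18a1* was at 102 to 116 CPM in WT and 59.1 to 64.3 CPM in KO. In T and NK-like cells 12 UMIs were counted in WT and 0 in KO, from 153 to 236 cells per WT library and 55 to 113 per KO library. In macrophage-like cells 17 UMIs were counted in WT and 8 in KO, or 9.85 and 5.53 CPM over the pooled libraries. Reads of *Slc19a1*, which overlaps *Col18a1* on the other strand, were few in CNT and PC, at 2.29 CPM, with a log2 fold change of −0.02.

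**Figure D4:**
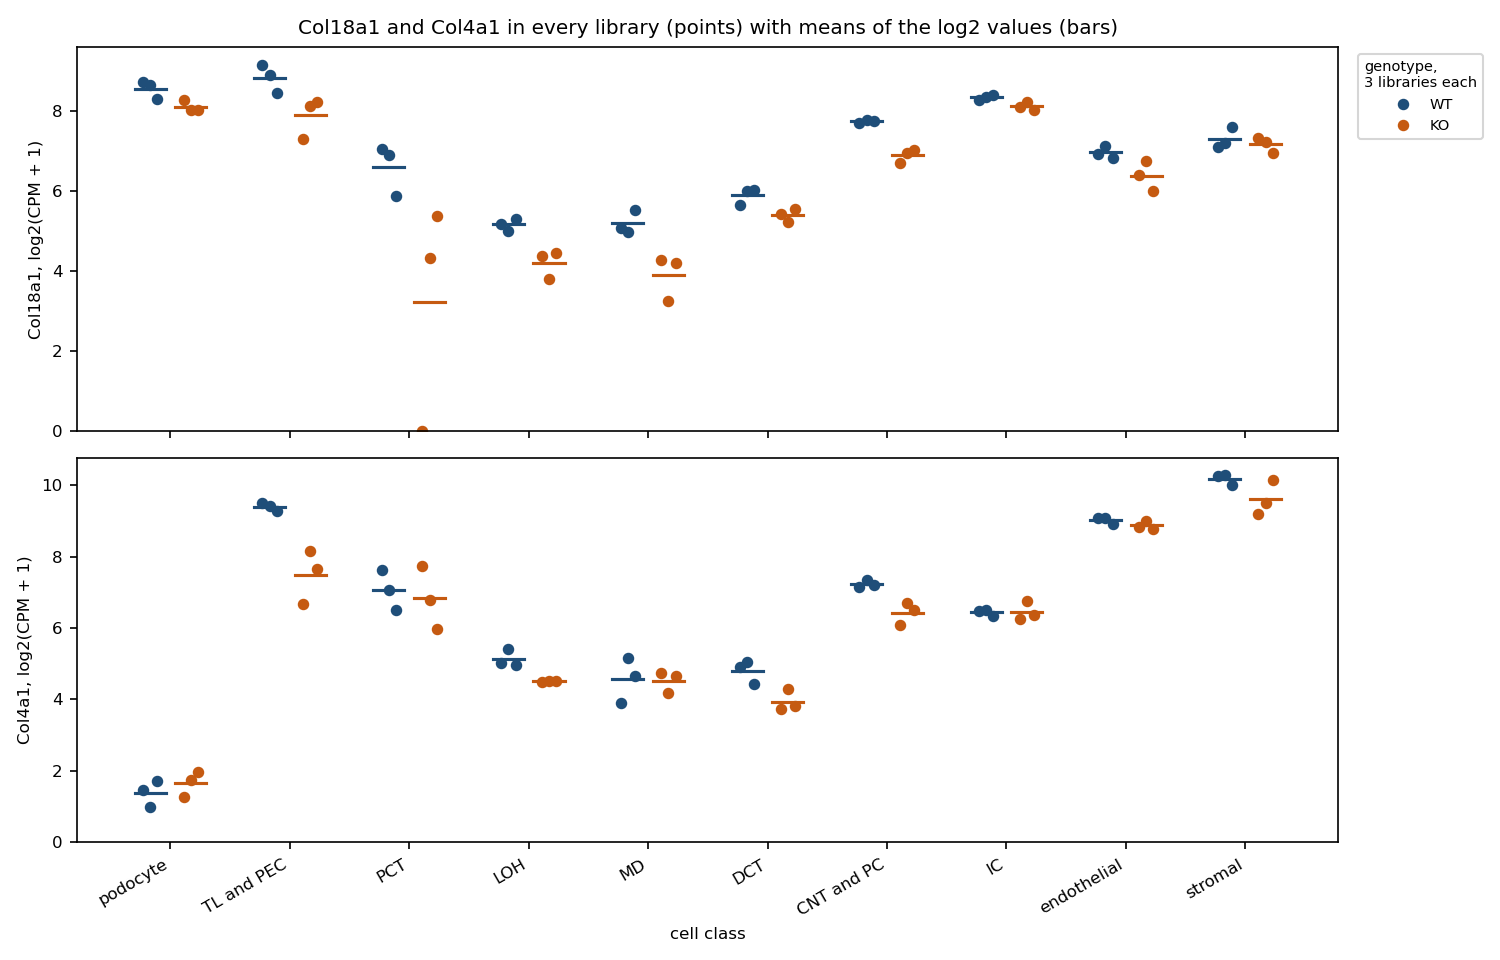
Level of *Col18a1* (upper panel) and *Col4a1* (lower panel) in each library by class, on a log2(CPM + 1) scale, with points for 3 WT and 3 KO libraries and bars for the mean of the log2 values. The KO points of *Col18a1* lie below all WT points in every class shown but the stromal-like class, and those of *Col4a1* do so in TL and PEC, LOH, DCT and CNT and PC.

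*Col4a1* was lower in the same tubule classes. In CNT and PC it was at 141, 161 and 148 CPM in WT mice against 67.1, 102 and 89.1 CPM in KO mice. The groups did not overlap. The log2 fold change came to −0.79 (SE 0.15, adjusted p 0.0203 by edgeR). In LOH it was at 31.3, 41.2 and 30.04 CPM in WT mice against 21.5, 21.6 and 21.9 CPM in KO mice (−0.65, SE 0.13, adjusted p 0.0159 by edgeR). The KO libraries of LOH were almost equal to each other and the WT libraries lay above them. Both calls were lost with a mitochondrial limit of 30% (adjusted p 0.106 in CNT and PC and 0.819 in LOH), and that in LOH also with no such limit (0.0943). Both calls were also lost when certain single libraries were left out. The estimates of the leave-one-out fits stayed lower in KO, at −0.92 to −0.61 in CNT and PC and −0.74 to −0.50 in LOH. The 4 libraries without *Xist* gave −0.58 and an adjusted p of 0.104 in CNT and PC and −0.47 and 0.158 in LOH. Leaving out WT replicate 2 or 3 or KO replicate 3 raised the adjusted p in CNT and PC to 0.0667, 0.0663 and 0.0504, and leaving out WT replicate 2 or KO replicate 1 or 3 raised that in LOH to 0.0597, 0.0622 and 0.0614. In single clusters, compared after seeing the data, KO lay wholly below WT for *Col4a1* in 4 of 10. These included the CNT and PC clusters led by *Mcoln3* and by *Trpv5* and the LOH cluster led by *Cldn10*. The CNT and PC cluster led by *Klk1* overlapped, with means of 38.02 CPM in WT and 34.98 CPM in KO. The LOH cluster led by *Col5a2* overlapped as well. Median mitochondrial shares of CNT and PC were 31.5% to 34.0% in WT and 34.6% to 37.0% in KO. Summed DCT markers were lower in this class, and summed LOH markers barely so with single genes in both directions, as given above. In LOH the summed principal cell markers, given above, and the summed DCT markers, at 26.8 to 40.7 CPM in WT and 17.7 to 26.3 CPM in KO, were also lower in KO. Mean *Col4a1* was 185, 111 and 36.5 CPM in the CNT and PC clusters led by *Mcoln3*, *Trpv5* and *Klk1*. The *Mcoln3* cluster held 304, 245 and 294 of the 961, 875 and 736 cells of the class in WT. In KO it held 132, 107 and 184 of 776, 404 and 510 cells. *Col4a1* was at a higher level in CNT and PC than in LOH. Free RNA held it at 61.0 to 89.7 CPM in WT and 47.1 to 64.9 CPM in KO, above its level in LOH in every library. The part of these in the results was not tested.

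*Col4a2*, the partner chain, had a smaller estimate in CNT and PC. It was at 36.0, 42.5 and 37.6 CPM in WT mice against 27.4, 29.8 and 28.5 CPM in KO mice, without overlap (−0.43 on the log2 scale, adjusted p 0.0940 by edgeR). In LOH *Col4a2* overlapped (−0.26, 0.494). In DCT both genes lay lower without passing the threshold, *Col4a1* at 28.9, 32.1 and 20.6 CPM against 12.2, 18.4 and 13.0 CPM (−0.93, adjusted p 0.0840 by edgeR) and *Col4a2* with an estimate of −0.98 (0.211). In IC the estimates were 0.08 and 0.20. For *Col4a1* KO lay wholly below WT in 4 of the 9 classes that tested it, and of 3020 genes tested in those classes 3.51% did so in at least as many.

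The largest fold changes of the pair were in the rarest epithelial class. In TL and PEC *Col4a1* was at 720, 684 and 614 CPM in WT mice against 100, 287 and 199 CPM in KO mice, and *Col4a2* at 215, 213 and 216 CPM against 28.1, 92.2 and 62.7 CPM. The groups were far apart, with log2 fold changes of −1.81 (SE 0.32) and −1.86 (SE 0.34), yet both had an edgeR adjusted p of 0.110, in a class with 27 to 87 cells per library where 0.0562% of genes passed. DESeq2 gave 0.000252 and 0.00158, and edgeR gave 0.0186 and 0.0235 on the 4 libraries without *Xist*. The makeup of the class varied between libraries, since summed podocyte markers ran from 818 to 3663 CPM, summed descending limb markers from 20.9 to 3945 CPM, and summed mesangial markers from 192 to 391 CPM in WT and from 139 to 177 CPM in KO (5 genes, 2 of them not overlapping). Median depths were 3245 to 4181 UMIs in WT and 4332 to 5850 UMIs in KO, and median mitochondrial shares were 17.6% to 25.0% in WT and 12.2% to 17.2% in KO, both without overlap. The part of these in the result was not tested. *Col4a3* and *Col4a4* overlapped between genotypes in TL and PEC, with estimates of −0.16 and 0.01.

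In the vascular and mesangial classes, where *Col4a1* is high, no difference passed the test. Mesangial-like cells were at 1583, 1426 and 1409 CPM in WT mice against 882, 1041 and 1408 CPM in KO mice, where KO replicate 3 nearly reached the WT libraries (−0.35 on the log2 scale, adjusted p 0.677 by edgeR). Endothelial-like cells were at 539, 539 and 480 CPM against 457, 513 and 440 CPM (−0.13, 0.841). Smooth muscle and renin-like cells, with 27 to 115 cells per library and 4.35% of genes below WT without overlap, were at 398, 666 and 430 CPM against 269, 205 and 233 CPM (−1.06, adjusted p 0.336 by edgeR).

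The share of *Col4a3*, *Col4a4* and *Col4a5* among the UMIs of all 5 collagen IV genes describes the balance of the networks within a library and needs no scaling between libraries, although it is a share of captured 3′ ends and not of protein. It was 99.8% to 99.9% in every podocyte-like library, 89.5% ± 2.34 in MD, 88.5% ± 4.68 in DCT, 82.6% ± 3.17 in LOH, 56.0% ± 3.82 in IC and 2.48% ± 1.13 in mesangial-like cells. In CNT and PC it was 74.5%, 65.2% and 69.7% in WT and 82.6%, 77.1% and 76.1% in KO, higher in every KO library by 8.79 percentage points on average. In TL and PEC it was 41.5%, 47.5% and 34.4% in WT and 83.3%, 60.1% and 68.0% in KO, a difference of 29.4 points. There *Col4a1* and *Col4a2* were lower in KO while *Col4a3* and *Col4a4* overlapped, as given above. Podocyte transcripts were also counted in this class. *Nphs1* was at 12.5% of its podocyte-like level, beside 14.96% for *Col4a3*, 22.6% for *Col4a4* and 42.1% for *Col4a5*. The part of these transcripts in the share was not tested. The share was also higher without overlap in DCT (7.32 points) and LOH (3.89 points), and overlapped in IC (−2.62 points). *Col4a1* was itself lower without overlap in CNT and PC, TL and PEC, DCT and LOH. The higher share in these 4 classes is therefore not a result separate from that of *Col4a1*. The exact two-sided permutation test gave p 0.1 in these 4 classes and in podocyte-like cells, where KO lay below WT by 0.0518 points, the smallest p that 3 libraries against 3 allow, and 0.22 after adjustment over 11 classes, so no class could pass.

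**Figure D5:**
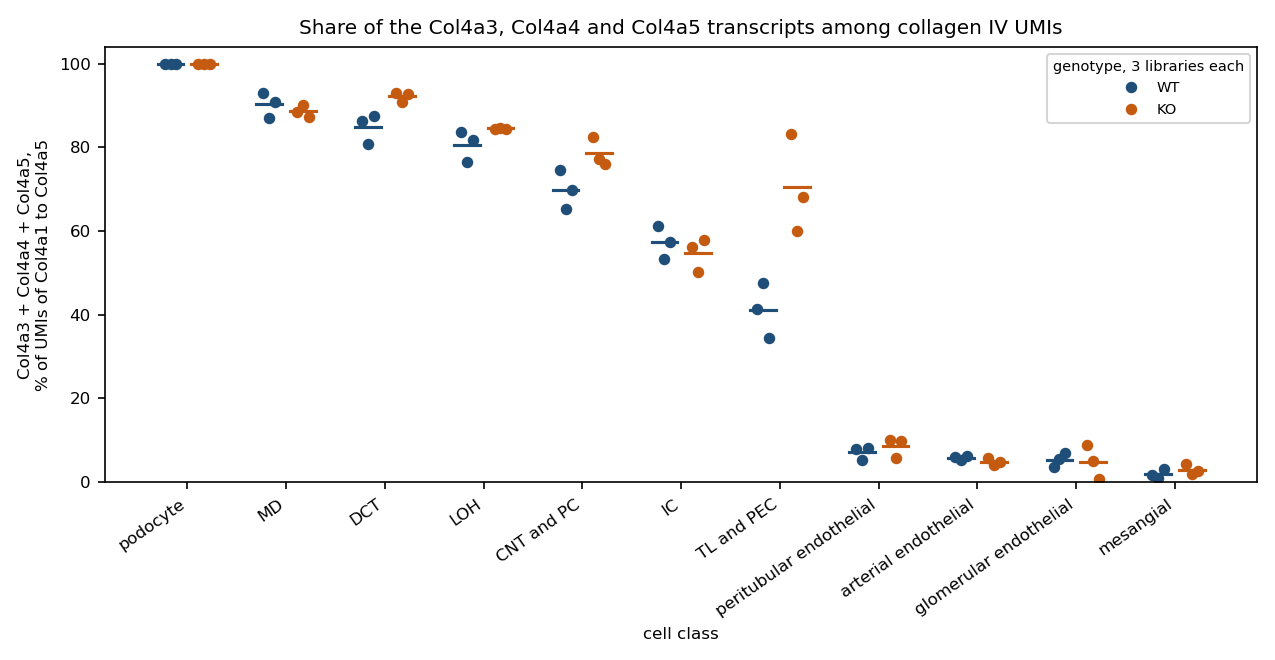
Share of *Col4a3*, *Col4a4* and *Col4a5* UMIs among the UMIs of *Col4a1* to *Col4a5* in 11 classes, as a percentage per library (points, 3 WT and 3 KO) with group means (bars). KO libraries lie above WT libraries in DCT, LOH, CNT and PC and TL and PEC, where the mean difference is 29.4 points in TL and PEC and 8.79 points in CNT and PC.

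The chains of the glomerular network overlapped between genotypes in podocyte-like cells. *Col4a3* was at 1428, 1349 and 1199 CPM in WT mice against 1451, 1381 and 1134 CPM in KO mice, *Col4a4* at 1568, 1390 and 1342 CPM against 1602, 1554 and 1259 CPM, and *Col4a5* at 226, 193 and 202 CPM against 228, 201 and 198 CPM. All 3 overlapped, with replicate 3 the lowest of its group for *Col4a3* and *Col4a4* in both genotypes. The log2 fold changes were −0.02 (SE 0.11), 0.02 (SE 0.11) and −0.01 (SE 0.10), with edgeR adjusted p-values of 0.945, 0.964 and 0.989. A test that misses its threshold does not show equality.

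*Lama5* had the highest estimate of the 7 genes that passed the count filter in podocyte-like cells. *Nid1*, which did not pass it there, is given below. *Lama5* was at 167, 150 and 153 CPM in WT mice against 282, 213 and 180 CPM in KO mice, so that every KO library lay above WT, by a margin that differed widely among them. The log2 fold change came to 0.50 (SE 0.14, adjusted p 0.0944 by edgeR), in a class where 1.79% of genes passed and 12.4% lay above WT without overlap. DESeq2 gave an adjusted p of 0.0376, and the 4 libraries without *Xist* gave 0.31 and 0.449 with edgeR. KO lay wholly above WT in each of the 3 podocyte-like clusters, which are parts of the same libraries. The share of all genes that did so was not counted, so this is a description. *Lamc1* lay lower there, at 66.6, 59.7 and 64.7 CPM against 53.5, 55.7 and 47.4 CPM without overlap (−0.30, adjusted p 0.155 by edgeR), and *Lamb2* overlapped (−0.16, 0.610). Podocyte-like cells of KO were shallower, with median depths of 2656 to 3441 UMIs against 4312 to 5290 UMIs, and had mitochondrial shares of 13.8% to 13.9% against 10.9% to 12.3%, and the part of these in the results was not tested.

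In MD *Col4a3* was at 81.6, 77.0 and 90.8 CPM in WT mice against 48.0, 64.8 and 49.4 CPM in KO mice, without overlap but short of the threshold (−0.58, adjusted p 0.241 by edgeR).

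Outside podocytes the laminin and nidogen genes showed no call in the main fits. In endothelial-like cells *Lamc1* was at 218, 211 and 137 CPM in WT mice against 127, 150 and 123 CPM in KO mice, with WT replicate 3 inside the KO range (−0.48 on the log2 scale, adjusted p 0.402 by edgeR), and *Lama5* and *Lamb2* overlapped (−0.21 and −0.15). *Nid1* was at 153, 141 and 171 CPM against 164, 160 and 161 CPM there (0.07, adjusted p 0.932 by edgeR) and overlapped in stromal-like cells as well (−0.04, 0.990). In LOH *Lama5* overlapped at 25.8, 24.0 and 23.2 CPM against 36.3, 21.6 and 32.9 CPM (0.32, 0.357), and *Lamb2* and *Lamc1* had estimates between −0.29 and 0.27 over the tubule classes that tested them. In the main fits all edgeR tests of *Lama5*, *Lamb2*, *Lamc1* and *Nid1* had an adjusted p of 0.0944 or more. Among the alternatives, *Lama5* in LOH was called higher in KO with no mitochondrial limit (0.53, adjusted p 0.0306 by edgeR). It was also called without KO replicate 2 (0.51, 0.0394 by edgeR).

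Glomerular endothelial cells face the same membrane as podocytes. Genotype effects of podocyte-like and endothelial-like cells were compared by an interaction term with the library as a block. The endothelial-like class pooled 1861 glomerular with 1627 peritubular and 1678 arterial endothelial-like cells. The fit therefore does not compare the cells on either side of 1 membrane. In podocyte-like minus endothelial-like cells 1 of the 10 genes passed, where 1.43% of 11260 genes did. This was *Nid1* (difference of log2 fold changes 2.23, SE 0.52, adjusted p 0.0308 by edgeR). *Nid1* had failed the count filter in podocyte-like cells, with 112 UMIs there in all, and entered this fit through its endothelial counts, so no difference between the classes is read from it. Of the 6 genes that passed the filter in both classes, a restriction added after seeing the data, 0 passed with edgeR (1 at an unadjusted p under 0.05), where 1.67% of 8035 genes did. The podocyte-like level of *Nid1* was very low, at 0.874, 1.47 and 2.05 CPM in WT mice against 13.8, 2.06 and 5.82 CPM in KO mice, with KO replicate 1 standing apart. Summed endothelial markers in podocyte-like cells were at 1.53 to 5.13 CPM in WT and 7.19 to 20.8 CPM in KO (7 genes, 3 of them not overlapping, none at 0 throughout). Summed mesangial markers were at 46.7 to 70.7 CPM in WT and 72.3 to 81.2 CPM in KO (5 genes, 1 of them not overlapping, none at 0 throughout), and mesangial-like cells were the class highest in *Nid1*. Summed stromal markers went the other way, at 510 to 693 CPM in WT and 326 to 402 CPM in KO (4 genes, 1 of them not overlapping). Those of smooth muscle and renin cells overlapped. Free RNA held *Nid1* at 6.75 to 8.45 CPM in WT and 9.72 to 16.8 CPM in KO. The part of these in the value was not tested. The difference was 1.25 from the 4 libraries without *Xist* and 1.15 without KO replicate 1, with edgeR adjusted p-values of 0.727 and 0.493, and the adjusted p was 0.145, 0.0961 and 0.0859 without WT replicate 1, 2 or 3. *Lama5*, which passed the filter in both classes, had a difference of 0.69 (SE 0.19, adjusted p 0.0742 by edgeR over all genes of the fit), which was 0.44 with 0.749 from the 4 libraries without *Xist*, and *Col18a1* had one of 0.08 (SE 0.19). In stromal-like minus endothelial-like cells 0 of 10 passed with edgeR (2 at an unadjusted p under 0.05, lowest adjusted p 0.337 for *Lamc1*), where 0.0326% of genes did.

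Genes that act with these proteins were counted from lists, beside the 0.76% of all tests called higher and the 0.706% called lower over the 12 classes. The other basement membrane chains (11 genes) had 1 called higher and 2 lower in 27 tests over the 12 classes. Those called lower were in LOH. *Lamb1*, another laminin beta chain, fell from 118, 127 and 133 CPM in WT mice to 88.7, 95.7 and 103 CPM in KO mice (−0.39 on the log2 scale, adjusted p 0.0436 by edgeR). *Nid2*, the second nidogen, fell from 4.00 CPM on average in WT to 1.39 CPM in KO (−1.41, adjusted p 0.0484 by edgeR).

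Proteoglycans and associated proteins (17 genes) had 1 called higher and 3 lower in 69 tests. *Ntn4*, a netrin that binds laminin, fell in LOH from 243, 227 and 204 CPM to 130, 171 and 142 CPM (−0.60 on the log2 scale, adjusted p 0.00878 by edgeR). *Npnt*, nephronectin, an integrin ligand, fell there from 7.74, 8.88 and 6.03 CPM to 4.49, 3.30 and 2.38 CPM (−1.19, 0.0214). These levels are low beside the 539 CPM of *Npnt* in CNT and PC, whose principal cell markers were also lower in the LOH of KO. *Hspg2*, perlecan, fell in CNT and PC from 14.4, 16.2 and 12.1 CPM to 8.57, 8.52 and 8.27 CPM (−0.74, 0.0364), and *Sparc*, a collagen-binding glycoprotein, rose from 5.68 to 14.4 CPM on average (1.35, 0.0193). *Sparc* was at 5970 CPM in podocyte-like cells, so its level in CNT and PC was far below that of its main source. In peritubular endothelial-like cells *Npnt* fell from 77.6, 37.3 and 79.5 CPM to 14.8, 2.27 and 8.16 CPM (−2.87, 0.0351), and *Npnt* is also a transcript of podocyte-like cells (2524 CPM).

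Collagen folding and crosslinking enzymes (17 genes) had 1 call in 136 tests, *P3h2*, a prolyl hydroxylase of collagen IV, which rose in CNT and PC from 91.9, 96.0 and 73.2 CPM to 144, 126 and 153 CPM (0.72 on the log2 scale, adjusted p 0.00942 by edgeR). Receptors (12 genes) had 2 calls in 106 tests, both of the heparan sulfate carrier *Sdc4*, which fell in MD (−0.66, 0.0171) and in CNT and PC (−0.50, 0.0404). Proteases and their inhibitors (12 genes) had 3 called higher in 59 tests. These were the cathepsin *Ctsl* (0.52, 0.0116) and the metalloprotease *Adamts1* (0.66, 0.0185) in LOH and the inhibitor *Timp2* in CNT and PC (0.91, 0.0173). *Timp3*, another inhibitor, rose in mesangial-like cells from 1697, 1273 and 1294 CPM to 2675, 2705 and 2400 CPM (0.93, adjusted p 0.0201 by edgeR). Median mitochondrial shares of mesangial-like cells were 14.8% to 17.3% in WT and 19.3% to 21.1% in KO, without overlap, and their part was not tested. Over all cells *Mmp9* rose from 1.08 to 23.4 CPM on average (4.43, 0.00428), a gene of neutrophils, whose cluster held 0 to 31 cells in WT libraries and 58 to 242 in KO libraries.

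Regulators (11 genes, 10 in the libraries) had 1 called higher and 1 lower in 70 tests. *Tgfbr2*, a receptor for TGF-beta, fell in podocyte-like cells from 97.4, 87.9 and 103 CPM to 48.9, 52.4 and 47.8 CPM (log2 fold change −0.97, SE 0.11, adjusted p 0.00139 by edgeR), and *Tgfbr1*, its partner receptor, rose in LOH from 23.4, 30.5 and 27.9 CPM to 46.8, 43.3 and 45.2 CPM (0.72, SE 0.12, 0.00406). In both the KO libraries lay close to each other and apart from WT. From the 4 libraries without *Xist* the 18 called tests of list genes, subclasses and all cells included, kept their direction and 7 kept an edgeR adjusted p under 0.05, those of *Tgfbr2* (0.0227) and *Tgfbr1* (0.0183) among them, while the other 11 had 0.0568 to 0.336, among them *Timp3* (0.299), *Hspg2* (0.336) and *Ntn4* (0.0728). The marker, depth and mitochondrial differences given above for LOH, CNT and PC and podocyte-like cells stand beside these calls too, and their part was not tested.

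Over 15 class means, the genes most like each member other than those given above were *Id3* and *Pcdh1* for *Col4a1* and *Col4a2* (Pearson correlation 0.96 and 0.95 for *Col4a1*), *Wdr77*, *Pdpn* and *Arhgef16* for *Col4a3* (0.91 to 0.92) and *Arhgef16*, *Arhgap24* and *Ctnnal1* for *Col4a4* (0.94 to 0.98). For *Col4a5* they were *Kank1*, *Zfp612* and *Syde2* (0.92 to 0.93). *Lama5* was most like *Bcam* (0.97), which encodes a receptor for laminin alpha 5, then *Pls3* and *Mageh1*. *Lamb2* was most like *Get4*, *Camsap2* and *Calu* (0.95 to 0.97), *Lamc1* most like *Ttl*, *Eml1* and *Cavin3* (0.94) and *Nid1* most like *Osmr*, *Ecm1* and *Fkbp10* (0.97). *Col18a1* had no gene above 0.87, the value for *Cryab*, followed by *Emc10* and *Mycbp* at 0.86. These values rest on 15 points that share libraries and are descriptions.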

How the data were processed

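The deposited matrices held counts, as UMIs per gene and barcode, which the authors made with the BD Rhapsody WTA pipeline on mm10 and deposited with 168106 to 208226 barcodes per library. Barcodes with 500 to 60000 UMIs, 200 to 8000 genes and at most 50% mitochondrial UMIs were kept. Doublets called by Scrublet were removed, or the top 6% of scores in WT replicate 1 and KO replicate 2, where the caller marked under 0.5%. Cells were clustered with scanpy 1.11.5 (30 components, Leiden resolution 1.0) and named from 126 marker genes. UMIs were summed per library and class and tested with edgeR 4.0.16 (quasi-likelihood, TMM, filterByExpr with a minimum count of 10, Benjamini-Hochberg over all genes of a class, threshold 0.05), with DESeq2 1.42.0 as an alternative, and the script was tested on simulated data. CPM are the UMIs of a gene per 1e+06 UMIs of a class. The p-values measure the spread between 3 and 3 mice.

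The genes named are the 10 members, *Prdm16*, up to 5 called genes per list and the 3 genes most like each member. Members and lists were chosen with earlier results of these data known. The values of 1 called list gene are not reported here. Gene positions are from GENCODE vM21 on GRCm38. Count sums lie near 3′ ends. The tissue was digested with collagenases, and the part of this in which cells were recovered was not tested.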

Additional observations from a re-analysis of the deposited data

Results flagged for a closer look

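The KO effect on *Nid1* differed between podocyte-like and endothelial-like cells by 2.23 on the log2 scale, by a test of the difference itself (edgeR interaction term, SE 0.52, adjusted p 0.0308). *Nid1* had failed the count filter in podocyte-like cells, with 112 UMIs there in all, and entered the fit through its endothelial counts, so the value is given as a description and no difference is read from it. The podocyte-like values were 0.874 to 2.05 CPM in WT and 2.06 to 13.8 CPM in KO, and the endothelial-like values 141 to 171 CPM and 160 to 164 CPM. Without KO replicate 1 the difference was 1.15 with an adjusted p of 0.493, and from the 4 libraries without *Xist*, a fit added after seeing the data, 1.25 with 0.727 (edgeR). Summed endothelial markers in podocyte-like cells were higher in KO as well (7.19 to 20.8 CPM against 1.53 to 5.13 CPM), as were summed mesangial markers (72.3 to 81.2 CPM against 46.7 to 70.7 CPM). Summed stromal markers were lower in KO (326 to 402 CPM against 510 to 693 CPM), and those of smooth muscle and renin cells overlapped. The part of these in the value was not tested.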

How the results depend on the processing

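The number of the 10 genes called over 12 classes, 4 with edgeR, was 8 with DESeq2, 12 with no filter on low counts (118 tests), 1 with a mitochondrial limit of 30% (64 tests) and 2 to 6 when each library was left out. With the replicate number as a block it was 8, but same-numbered libraries did not deviate together (0 of 18 fits had every correlation above 0.1, range −0.193 to 0.280, and in 0 classes did every library correlate best with its own number), so the numbers do not pair the mice. In the 5 subclasses the count rose from 0 to 1 with no filter, the 30% limit, Leiden resolution 2.0, the replicate block and a block for the *Xist* libraries, and stayed 0 in each leave-one-out fit. The chain share difference reversed with the 30% limit in MD (4.03 points) and peritubular endothelial-like cells (−0.0970 points), and ran from −2.53 to 1.59 points in glomerular endothelial-like cells when each library was left out (0.276 without WT replicate 3, 1.59 without KO replicate 3). The number of genes that differed between podocyte-like and endothelial-like cells was 2 with the 30% limit and 0 to 2 when each library was left out, and 0 in both fits added after seeing the data, from the 4 libraries without *Xist* and over genes past the count filter in both classes. The cause of these changes was not tested. The 30% limit left 88 to 171 LOH cells per library.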
